A study of Mus musculus with 96 samples.

Results

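The 1415 accessible promoters are the GATA6 binding regions that carried promoter-type histone marks and fell in the most accessible of the chromatin classes of undifferentiated embryonic stem (ES) cells. They were chosen from a table of 42403 GATA6 regions by these 2 class columns alone, and none of the factor levels described here entered the choice, although a region had to be a GATA6 peak in some condition to be in the table. The promoter class held 2918 regions in all, of which 1464 were moderately accessible and 39 closed, and these 1503 less accessible promoters and 1285 accessible active enhancers serve as the sets to compare with.

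GATA6, SOX17, OCT4, SOX2 and ESRRB were mapped by chromatin immunoprecipitation and sequencing (ChIP-seq) together with input DNA, to follow how GATA6 drives ES cells towards primitive endoderm (PrE). The cells were KH2 ES cells of C57BL/6 x 129/Sv background with a doxycycline (Dox)-inducible Gata6 expression cassette, grown in serum and LIF on feeders, and all of them carried the cassette, those before Dox included. They were taken before Dox and at 8 h, 16 h, day 1, day 2 and day 4 of Dox at 1 µg/mL, whereas XEN cells, a stem cell line of PrE type, came from the line X10 of CD1 strain, were grown without LIF and received no treatment, so that strain, line and cell state cannot be told apart in any comparison with them. A further pair of arms received Oct4 or control siRNA with Dox and were taken at day 2 for GATA6 and SOX17, and all cells were fixed in DSG and then PFA.

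The deposited table gave 1 value a condition in RPM, the reads in a region scaled to a library of fixed size, pooled over 2 libraries for most conditions, over 1 for GATA6 before Dox and OCT4 in XEN cells, and over 3 for GATA6 and SOX2 at day 4, SOX2 before Dox and input in XEN cells. The labels give the third library of these the number of one of the others, so these conditions too hold only 2 distinct replicates. Replicate spread is therefore unknown, no difference between conditions could be tested, and rises and falls are given as values on the log2(RPM + pseudocount) scale. The 95% intervals of medians and shares describe the spread over regions and not over cultures. GATA6 before Dox was among the thinnest columns, in which the median accessible promoter held 5.0 reads and 77 held the lowest value of 0.163 RPM, worth 1 read. ESRRB was not mapped in XEN cells.

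A promoter is the stretch around a transcription start where general factors assemble, and in mammals many promoters sit in CpG islands and stay open in most cell types. Promoters of housekeeping genes often carry GC boxes and ETS sites, while tissue-specific factors such as GATA6, which reads an A/T-GATA-A/G sequence, bind more often at distal enhancers. OCT4, SOX2 and ESRRB are pluripotency transcription factors (PTFs) that maintain ES cells, OCT4 and SOX2 doing so in part on a joint OCT:SOX motif, and SOX17 is a SOX factor of the endoderm.

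Sequences of the regions on which the results below turn are given first, from the plus strand of GRCm38 (mm10). In the first set, capitals mark the GATA6 motif that the authors' scan placed in the region, with scores of 13.3, 11.0, 13.9, 12.8 and 8.88 in the order shown. GATA6 at the first promoter fell back after 8 h, at the next 3 it stayed on, and at the last it came late.
Itga6 chr2:71745504-71745583: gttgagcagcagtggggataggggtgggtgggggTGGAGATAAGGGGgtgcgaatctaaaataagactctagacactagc
Zfp655 chr5:145231534-145231613: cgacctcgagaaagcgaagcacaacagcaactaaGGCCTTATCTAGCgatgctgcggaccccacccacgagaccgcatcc
Zfp280b chr10:76032219-76032298: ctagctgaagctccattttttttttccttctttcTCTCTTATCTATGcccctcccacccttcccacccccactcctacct
L1td1 chr4:98726269-98726348: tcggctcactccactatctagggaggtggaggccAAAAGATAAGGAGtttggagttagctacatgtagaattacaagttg
Dhx35 chr2:158794402-158794481: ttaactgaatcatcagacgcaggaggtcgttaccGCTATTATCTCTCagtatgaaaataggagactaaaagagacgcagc

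The second set shows promoters occupied by PTFs before Dox, with capitals on the OCT:SOX motif for the first 4 lines and on the ESRRB motif for Mllt6. The motif scores were 13.6, 13.9, 17.7, 13.4 and 17.9.
Rif1 chr2:52072188-52072267: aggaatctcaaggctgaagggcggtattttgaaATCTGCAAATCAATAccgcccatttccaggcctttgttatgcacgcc
Esrrb chr12:86471013-86471092: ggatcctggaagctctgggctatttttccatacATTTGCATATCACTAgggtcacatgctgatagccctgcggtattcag
Nanog chr6:122707380-122707459: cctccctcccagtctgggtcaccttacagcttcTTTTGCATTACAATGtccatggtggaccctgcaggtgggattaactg
Crlf2 chr5:109558651-109558730: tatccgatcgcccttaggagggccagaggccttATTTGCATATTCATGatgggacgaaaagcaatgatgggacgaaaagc
Mllt6 chr11:97662596-97662675: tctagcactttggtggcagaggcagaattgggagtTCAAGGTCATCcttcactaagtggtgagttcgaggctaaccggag

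The third set shows the 100 bases around the GATA6 summit, the base of highest GATA6 signal, at promoters bound late or by SOX17. In Oaz1 and Lamc1 capitals mark GC boxes, 4 of them in Lamc1 with a pair that overlaps. In Fbxl19 they mark, from left to right, a GC box, a SOX word and a GATA word as spelled out with the word counts.
Oaz1 chr10:80826381-80826480: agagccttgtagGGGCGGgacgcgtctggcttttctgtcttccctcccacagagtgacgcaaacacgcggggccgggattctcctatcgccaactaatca
Lamc1 chr1:153332947-153333046: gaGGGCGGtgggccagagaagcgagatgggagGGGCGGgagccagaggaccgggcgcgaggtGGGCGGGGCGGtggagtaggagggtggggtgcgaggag
Fbxl19 chr7:127745458-127745557: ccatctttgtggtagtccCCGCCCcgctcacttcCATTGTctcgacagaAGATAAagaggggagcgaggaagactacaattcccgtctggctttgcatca

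The label of the set was checked against the gene annotation. In 992 of the 1415 accessible promoters (70.1%, 95% Wilson interval 67.7 to 72.4) the summit lay within 1000 bp of an annotated transcription start, and in 720 (50.9%) within 250 bp. The corresponding shares were 63.3% and 26.9% of less accessible promoters, 13.5% and 6.30% of accessible active enhancers and 10.9% and 4.91% of all regions. The remaining 423 regions carried promoter-type marks more than 1000 bp from a start, so the class is one of histone marks and not of position alone. The 992 regions belonged to 971 genes, of which 951 had 1 region, 19 had 2 and 1 had 3 or more.

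Accessible promoters were CpG rich. Their median GC content was 55.7% and their observed over expected CpG ratio 0.608, against 51.1% and 0.472 in less accessible promoters, 48.6% and 0.195 in accessible active enhancers and 45.2% and 0.195 in all regions. Within the set the CpG ratio was 0.719 for summits within 250 bp of a start, 0.572 from there to 1000 bp and 0.352 beyond. Summits lay in exons in 23.5% of accessible promoters against 5.35% of all regions, in introns in 31.8% and between genes in 44.7%. Width was alike across sets, with a median of 579 bp (quartiles 402 and 856, range 182 to 4299) against 615, 617 and 525 bp, which matters because RPM counts all reads of a region.

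GATA6 motifs were scarcer and weaker in accessible promoters than in the table as a whole. The authors' motif classes put 11.4% of accessible promoters in the high class, 20.4% in the mid class, 39.1% in the low class and 29.1% in the class without a motif, against 26.8%, 32.9%, 30% and 10.3% of all regions. Among the 1003 with a motif the median score was 8.72, against 9.80 in less accessible promoters, 8.48 in accessible active enhancers and 10.2 in all regions. The OCT:SOX motif was absent from 707 accessible promoters (50.0%) and of the high class in 83 (5.87%).

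Short words searched on either strand in the 300 bp around each summit, each counted on its own even where matches overlap, gave a like picture. The GATA word (AGATAA or TGATAA) was present in 41.1% of accessible promoters, 67.3% of less accessible promoters, 33.8% of accessible active enhancers and 75.2% of all regions. The SOX word (ACAATG or ACAATA) was present in 18.9%, 23.2%, 39.3% and 41.2% in that order, the octamer ATGCAAAT in 2.97%, 2.20%, 7.08% and 3.72%, and the ESRRB word TCAAGGTCA in 1.27%, 1.4%, 2.96% and 1.57%. Words of core promoters ran the other way. The GC box GGGCGG was present in 51.5%, 26.1%, 14.2% and 8.76%, and the ETS word CCGGAAG in 11.9%, 6.39%, 3.58% and 1.89%. The CCAAT word ATTGG differed less (38.0%, 30.9%, 32.7% and 32.5%), and the TATA word TATAAA was present in 5.58% of accessible promoters against 13.1% of all regions. A match is a run of letters and not a measured site.

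**Figure D1:**
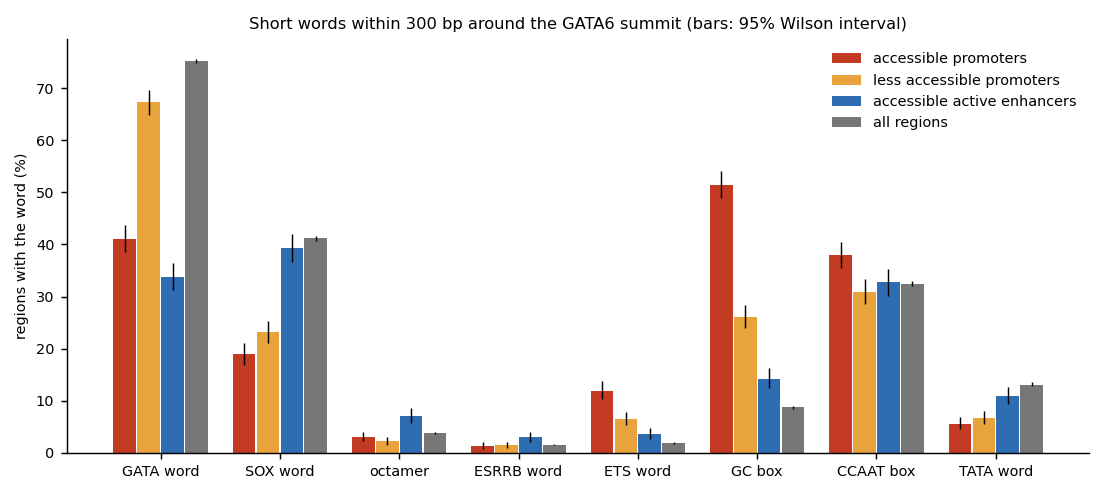
Share of regions (%, vertical axis) with each short word in the 300 bp around the GATA6 summit, for accessible promoters, less accessible promoters, accessible active enhancers and all regions, with 95% Wilson intervals as error bars. The GATA word is in 41.1% of accessible promoters against 75.2% of all regions, and the GC box in 51.5% against 8.76%.

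GATA6 arrived at accessible promoters within hours of Dox, and was also present there in XEN cells. The median level over the 1415 regions was 0.817 RPM before Dox, 2.01 and 2.66 after 8 and 16 h, 2.26, 2.33 and 2.85 on days 1, 2 and 4, and 3.27 in XEN cells. At accessible active enhancers the same column medians were 0.817, 3.59, 2.37, 1.83, 1.64, 1.14 and 0.736 RPM, a peak at 8 h and then a decline, and at less accessible promoters 0.653, 2.25, 2.84, 1.94, 1.83, 2.26 and 2.01 RPM. In RPM GATA6 was thus lower at accessible promoters than at the enhancers at 8 h and higher at every later time. As a ratio to input it was still lower on day 1 (1.73 against 2.43) and day 2 (2.42 against 2.54), and higher at 16 h, on day 4 and in XEN cells.

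Between before Dox and 8 h, GATA6 changed by a median of 1.35 on the log2 scale (95% interval 1.29 to 1.41). Of the 1415 accessible promoters, 903 (63.8%) were at least 2-fold higher, beside 60.4% of all regions, and 8 (0.565%) at least 2-fold lower, beside 1.80%. All regions changed by a median of 1.38, so relative to the table the change was -0.03, with 18.2% higher and 17.0% lower by 2-fold, whereas as a ratio to input 78.4% were higher. Accessible active enhancers changed by 2.07 and less accessible promoters by 1.58. The baseline of this comparison is the single GATA6 library before Dox.

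Between 8 h and day 4 the set moved apart from the enhancers. GATA6 changed by a median of 0.54 (95% interval 0.44 to 0.64) at accessible promoters, by -0.02 at less accessible promoters and in all regions, and by -1.61 at accessible active enhancers. At least 2-fold higher levels were seen at 483 accessible promoters (34.1%), beside 30.9% of all regions and 4.36% of the enhancers, and at least 2-fold lower ones at 275 (19.4%), beside 34.8% and 70.1%. Input DNA at the same regions also changed, by 0.49 between 8 h and day 4 (from 0.714 to 1.10 RPM), against 0.16 in all regions. Taken as a log2 ratio to input, GATA6 at accessible promoters changed by -0.10, with 12% of regions at least 2-fold higher and 24.9% lower, so the sign of this median depends on whether input is divided out.

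The condition with the highest GATA6 level differed in the same way. XEN cells held the highest value at 658 accessible promoters (46.5%), against 9.03% of accessible active enhancers and 31.8% of all regions. The 8 h column did so at 266 (18.8%), against 68.0% and 31.2%, and 16 h and day 4 accounted for 20.0% and 10.9%. The median ratio of GATA6 to input in the same condition was 0.736 before Dox, then 3.14, 3.38, 1.73, 2.42 and 2.64 from 8 h to day 4, and 2.30 in XEN cells. By this ratio the highest medians were those of 8 h and 16 h, and the median stayed above 1 in all conditions with Dox.

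**Figure D2:**
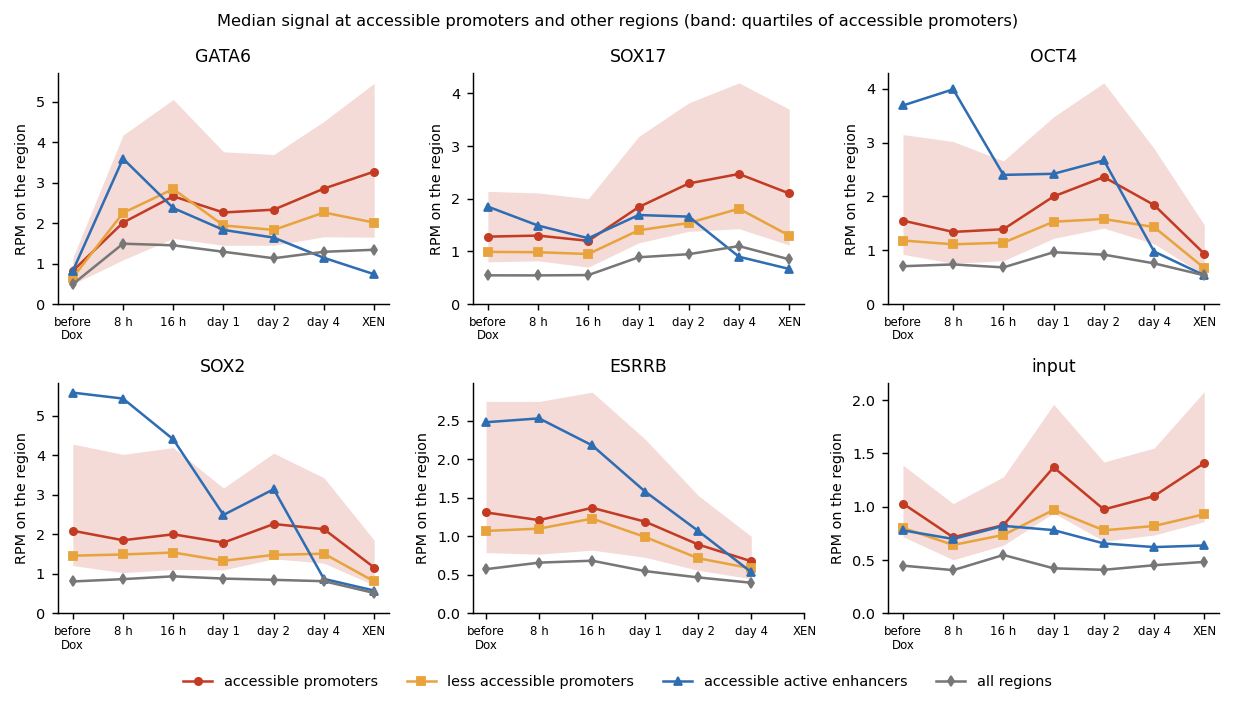
Median RPM (vertical axis) of GATA6, SOX17, OCT4, SOX2, ESRRB and input in each condition (horizontal axis) for accessible promoters, with the quartiles as a band, less accessible promoters, accessible active enhancers and all regions. GATA6 at accessible promoters is at 2.01 after 8 h, 2.85 on day 4 and 3.27 in XEN cells, while at accessible active enhancers it is at 3.59, 1.14 and 0.736.

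Input DNA was not level over the conditions and its course is needed to read the rest. Its median at accessible promoters was 1.03 RPM before Dox, 0.714 and 0.828 after 8 and 16 h, 1.37, 0.975 and 1.10 on days 1, 2 and 4, and 1.41 in XEN cells, against 0.448, 0.406, 0.548, 0.423, 0.409, 0.452 and 0.483 in all regions. Between before Dox and day 4 the net change was small, 0.11 (95% interval 0.08 to 0.13), with 5 regions (0.353%) at least 2-fold higher, beside 1.08% of all regions, and 10 (0.707%) lower, beside 0.790%. Input thus differed more between 8 h and day 4 than between before Dox and day 4. The part of input in the factor levels was not tested beyond the ratios given here.

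SOX17, a marker of endoderm, was higher from day 1 in RPM. As a ratio to input it was above its value before Dox at every later time, and highest on days 2 and 4. Median SOX17 was 1.28 RPM before Dox, 1.3 and 1.2 after 8 and 16 h, 1.84, 2.29 and 2.47 on days 1, 2 and 4, and 2.10 in XEN cells. The median ratio to input was 1.25, 1.85, 1.41, 1.38, 2.28, 2.25 and 1.45 in the same order, with day 1 below 8 h and 16 h. By day 4 SOX17 had changed by 0.96 (95% interval 0.91 to 1.02), with 681 accessible promoters (48.1%) at least 2-fold higher, beside 44.5% of all regions, and 113 (7.99%) lower, beside 8.72%. All regions changed by 0.79, and relative to that the change was 0.17 with 12.4% higher and 17.1% lower. At accessible active enhancers SOX17 changed by -0.86. The SOX17 column before Dox ran with that of SOX2 before Dox, with a Spearman's rho per kb of 0.730 over the 1415 accessible promoters and 0.828 over the 1285 enhancers, where points of a set share the same pooled libraries. The part of this in the SOX17 change was not tested. Day 4 was the highest SOX17 condition at 542 accessible promoters (38.3%), against 45.2% of less accessible promoters, 29.6% of all regions and 13.9% of the enhancers. The highest SOX17 value was before Dox in 38.1% of the enhancers, against 7.07% of accessible promoters and 7.59% of all regions.

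Median OCT4 and SOX2 at accessible promoters were no lower at day 4 than before Dox, as at less accessible promoters, whereas both were lower at the enhancers. Median OCT4 was 1.55 RPM before Dox, 1.34 and 1.39 after 8 and 16 h, 2.0, 2.36 and 1.84 on days 1, 2 and 4, and 0.933 in XEN cells, where it rested on 1 library. The same medians at accessible active enhancers were 3.69, 3.99, 2.40, 2.42, 2.67, 0.976 and 0.533 RPM. At less accessible promoters median OCT4 was 1.18 RPM before Dox and 1.43 at day 4, and median SOX2 1.46 and 1.51. The highest OCT4 value fell on day 2 in 46.2% of accessible promoters, against 16.3% of the enhancers and 16.2% of all regions. The median ratio of OCT4 to input at accessible promoters was 1.49 before Dox and 1.87 and 1.65 after 8 and 16 h. It was 1.39, 2.29 and 1.67 on days 1, 2 and 4, so day 1 was higher than 16 h in RPM and lower by this ratio.

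By day 4 OCT4 had changed by 0.33 (95% interval 0.29 to 0.38) at accessible promoters, by 0.16 in all regions and by -1.64 at accessible active enhancers. It was at least 2-fold higher at 133 accessible promoters (9.40%), beside 21.0% of all regions, and at least 2-fold lower at 226 (16.0%), beside 19.4%. Which count was larger depended on the setting, with 35.1% higher and 22.3% lower when input was subtracted, 33.7% and 21.8% past 1.5-fold, and 0.636% and 10.1% with a pseudocount 10 times larger. The gain at day 2 was 0.53, with 145 regions (10.2%) at least 2-fold higher, beside 14.6% of all regions, and 30 (2.12%) lower, beside 4.86%. In XEN cells OCT4 was 0.84 below its day 4 level, and the ratio to input went from 1.67 at day 4 to 0.701.

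In RPM, SOX2 kept a nearly level median up to day 4, at 2.09 RPM before Dox, 1.85 and 2.0 after 8 and 16 h, 1.79, 2.26 and 2.13 on days 1, 2 and 4, and 1.16 in XEN cells. At accessible active enhancers it ran from 5.58 before Dox to 0.873 at day 4. The median change by day 4 was 0.20 (95% interval 0.14 to 0.25) at accessible promoters, 0.10 in all regions and -2.37 at the enhancers, yet the mean over accessible promoters was -0.19. By region, 188 (13.3%) were at least 2-fold higher, beside 24.0% of all regions, and 323 (22.8%) at least 2-fold lower, beside 24.1%. With input subtracted 31% were higher and 30% lower, and past 1.5-fold 32.4% and 29.5%, so the excess of lower regions did not hold under these settings. SOX2 was highest at day 4 in 45.6% of accessible promoters, against 38.1% of less accessible promoters, 34.8% of all regions and 5.6% of the enhancers. The median ratio of SOX2 to input at accessible promoters was less level than RPM. It was 1.97 before Dox, 2.71 and 2.41 after 8 and 16 h, 1.29, 2.24 and 1.99 on days 1, 2 and 4, and 0.862 in XEN cells.

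ESRRB was lower by day 4 at accessible promoters, as in all regions. Its median was 1.31 RPM before Dox, 1.21 and 1.37 after 8 and 16 h, and 1.19, 0.894 and 0.677 on days 1, 2 and 4, and the ratio to input went from 1.3 to 0.632. The change by day 4 was -0.82 (95% interval -0.87 to -0.75), against -0.40 in all regions and -1.88 at accessible active enhancers. No accessible promoter was at least 2-fold higher, beside 0.248% of all regions, and 602 (42.5%) were at least 2-fold lower, beside 25.2%. Relative to the median of all regions the change was -0.42, with 29.9% lower by 2-fold.

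Distance from the start separated the set further. Within 250 bp of a start, median GATA6 was 0.653 RPM before Dox, 1.42 and 2.15 after 8 and 16 h, 1.97, 2.16 and 2.88 on days 1, 2 and 4, and 3.62 in XEN cells. Beyond 1000 bp it was 0.817, 3.35, 3.61, 2.69, 2.56, 2.27 and 2.04 RPM. GATA6 between 8 h and day 4 changed by 0.98 in the near group, where 349 of 720 regions (48.5%) were at least 2-fold higher and 46 (6.39%) lower. It changed by 0.18 from there to 1000 bp, and by -0.74 beyond 1000 bp, where 55 of 423 (13.0%) were higher and 180 (42.6%) lower. Among all regions 30.9% were higher and 34.8% lower. Regions with promoter-type marks far from a start thus moved in the same direction as the enhancers.

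The pluripotency factors split along the same line. SOX2 within 250 bp went from 1.53 RPM before Dox to 2.13 at day 4, and beyond 1000 bp from 4.12 to 1.74. OCT4 went from 1.19 to 1.72 RPM near the start and from 2.92 to 1.72 far from it. In log2 terms the day 4 changes were 0.54 and -0.95 for SOX2, 0.52 and -0.40 for OCT4, 1.14 and 0.32 for SOX17, and -0.54 and -1.53 for ESRRB. Input changed too between 8 h and day 4, by 0.66 near and 0.21 far from the start, and the median GATA6 ratio to input near the start was 2.29 and 2.99 after 8 and 16 h, 2.64 on day 4 and 2.45 in XEN cells, against 4.17, 3.88, 2.47 and 1.91 beyond 1000 bp. The near and far groups therefore still ran in opposite directions between 8 h and day 4 by this ratio, with the near group's gain much smaller than in RPM.

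**Figure D3:**
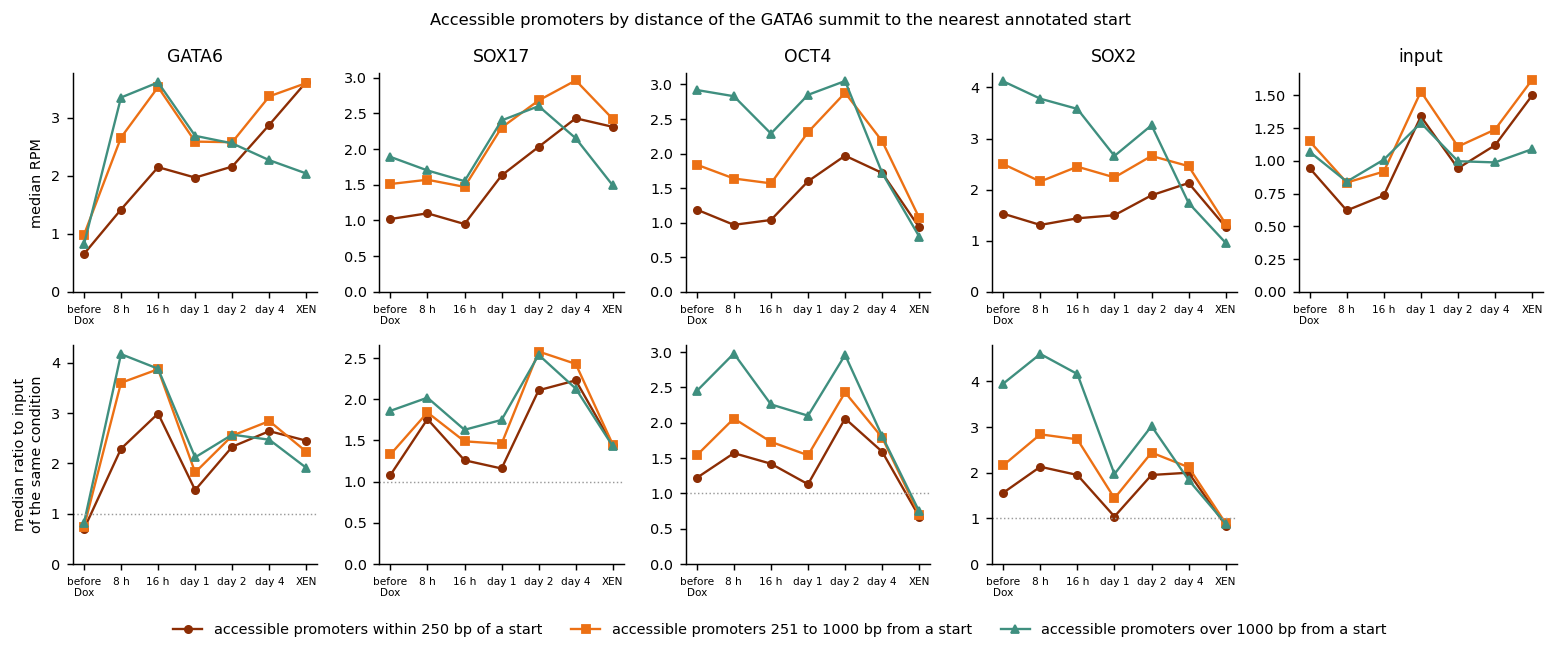
Median RPM (top panels) and median ratio to input of the same condition (bottom panels) of GATA6, SOX17, OCT4, SOX2 and input in each condition, for accessible promoters with the summit within 250 bp (720), beyond that up to 1000 bp (272) and over 1000 bp (423) from an annotated start. SOX2 goes from 1.53 to 2.13 RPM by day 4 in the nearest group and from 4.12 to 1.74 RPM in the farthest.

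Position and histone class were not interchangeable. The 81 accessible active enhancers with a summit within 250 bp of a start had median GATA6 levels of 0.653, 2.21, 1.85, 1.51, 1.69, 1.66 and 1.34 RPM from before Dox to XEN cells. Enhancers over 1000 bp from a start had 0.817, 3.73, 2.43, 1.85, 1.63, 1.07 and 0.671. The near enhancers lay between the far enhancers and the near promoters at 8 h, day 4 and in XEN cells.

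The authors' class of PTF binding, built from peaks of OCT4, SOX2 and ESRRB, put 488 accessible promoters (34.5%) in the group bound before Dox, 249 (17.6%) in the group bound only during differentiation (ectopic) and 678 (47.9%) in the group not bound. The shares of all regions were 20.8%, 16.6% and 62.6%, and 81.5% of accessible active enhancers were bound before Dox. Levels of the 3 PTFs in these groups are a description, since their peaks made the classes. SOX2 went from 5.99 RPM before Dox to 2.22 at day 4 in the group bound before Dox and from 2.20 to 3.43 in the ectopic group, and OCT4 from 4.14 to 2.29 and from 1.74 to 2.79.

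GATA6 was not used for that class and differed between its groups. In the group bound by PTFs before Dox, median GATA6 was 0.980 RPM before Dox, 4.48 and 4.36 after 8 and 16 h, 3.36, 3.06 and 2.84 on days 1, 2 and 4, and 2.37 in XEN cells. In the ectopic group it was 0.817, 1.79, 2.67, 2.67, 3.01, 4.24 and 4.91, and in the unbound group 0.653, 1.28, 2.03, 1.73, 1.82, 2.36 and 3.13. Because median widths were 812, 678 and 462 bp, levels compare better per kilobase (kb), at 5.70, 2.75 and 2.93 RPM per kb at 8 h and 3.74, 6.45 and 5.4 at day 4. Per kb, GATA6 was thus highest at 8 h and lowest at day 4 in the group bound before Dox. The day 4 order depended on the scale, since in RPM the unbound group was lowest, and by the median ratio to input at day 4 the groups stood at 2.55, 3.06 and 2.54.

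Between 8 h and day 4 GATA6 changed by -0.81 in the group bound before Dox, where 50 regions were at least 2-fold higher and 221 lower, by 1.08 in the ectopic group (135 and 5) and by 0.87 in the unbound group (298 and 49). The background of this comparison is the 30.9% higher and 34.8% lower among all regions. SOX17 by day 4 changed by 0.33, 1.44 and 1.01 in the same order. The group bound before Dox was also the CpG-poorest, with ratios of 0.379, 0.700 and 0.678, and its summits lay a median of 1175 bp from a start against 186 and 144 bp.

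In RPM, GATA6 changes differed between the PTF classes at each distance from a start, and between distances within the class bound before Dox. Within 250 bp, GATA6 from 8 h to day 4 changed by 0.02 (95% interval -0.33 to 0.34) at the 122 promoters bound by PTFs before Dox, by 1.21 at the 148 ectopic and by 1.04 at the 450 unbound ones. Beyond 1000 bp it changed by -1.22 (-1.4 to -1.05) at 259, by 0.83 at 46 and by 0.28 at 118. As medians of the ratio to input within 250 bp, the group bound before Dox went from 4.10 to 2.60, the ectopic group from 2.12 to 2.86 and the unbound group from 2.09 to 2.57. Within 250 bp the group bound before Dox was thus level in RPM with a lower ratio at day 4, while the other groups were higher at day 4 by both measures. Farther out the unbound group turned with input divided out, its ratio going from 2.91 to 2.61 up to 1000 bp and from 3.30 to 2.25 beyond.

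**Figure D4:**
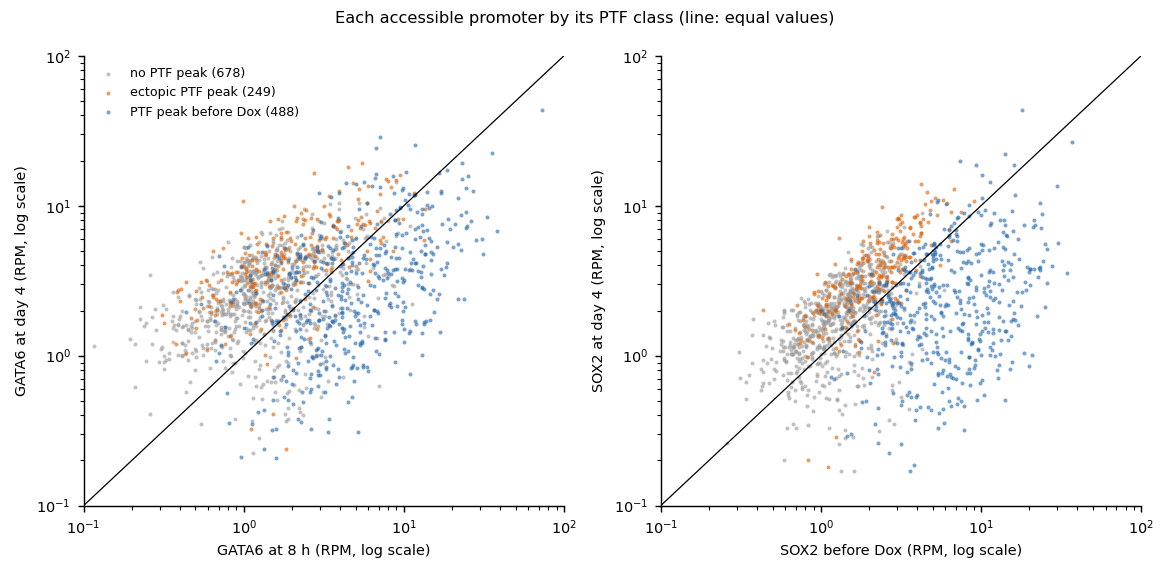
Each point is 1 of the 1415 accessible promoters, coloured by PTF class (488 bound before Dox, 249 ectopic, 678 not bound), with RPM on log axes. GATA6 at 8 h is set against day 4 on the left and SOX2 before Dox against day 4 on the right, and the group bound before Dox lies mostly below the diagonal in both, with GATA6 medians of 4.48 and 2.84 RPM and SOX2 medians of 5.99 and 2.22.

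Across the 1415 regions the levels of different factors ran together, and which ones did so shifted with time. On the per kb scale, which removes the shared effect of width, Spearman's rho between GATA6 at 8 h and OCT4 before Dox was 0.548 and that with SOX2 before Dox 0.539. GATA6 at 8 h had a rho of -0.301 with GATA6 at day 4 and of -0.407 with GATA6 in XEN cells, whereas GATA6 at day 4 and in XEN cells had 0.797. In raw RPM, where width is shared, the same pairs gave 0.818, 0.809, 0.393, 0.165 and 0.854. Promoters with much early GATA6 for their width thus tended not to be those with much late GATA6, as in the whole table. Per kb over all regions, GATA6 at 8 h had a rho of -0.305 with GATA6 at day 4 and of -0.421 with GATA6 in XEN cells.

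At day 4 the columns resembled each other and input. Per kb, the rho of SOX2 with GATA6 at day 4 was 0.836, that of SOX17 with GATA6 0.759 and that of SOX2 with SOX17 0.817, while SOX2 at day 4 had -0.168 with SOX2 before Dox. Over all regions the same pairs had 0.916, 0.903, 0.913 and -0.133. GATA6 had a rho with input of the same condition of -0.0347 after 8 h, 0.656 on day 4 and 0.768 in XEN cells, and SOX2 of -0.244 before Dox, 0.698 at day 4 and 0.785 in XEN cells. The part of input in the day 4 and XEN levels was not tested. These are descriptions over 1415 regions that share libraries and, for each region, base composition.

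The authors' GATA6 classes, built on the GATA6 signal itself, put 712 accessible promoters (50.3%) among Transient sites, 398 (28.1%) among Late sites and 305 (21.6%) among Early sites, against 38.4%, 33.6% and 28.0% of all regions and 73.5% Transient among the enhancers. Late accessible promoters were mostly without PTF peaks, with 277 (69.6%) in the unbound group, 85 (21.4%) ectopic and 36 (9.05%) bound before Dox, whereas 150 Early (49.2%) and 302 Transient promoters (42.4%) were bound before Dox. At Late promoters 3 other factors were higher by day 4, SOX17 from 0.789 to 2.30 RPM, SOX2 from 1.25 to 2.05 and OCT4 from 0.917 to 1.51. ESRRB was not among them, and over all accessible promoters it changed by a median of -0.82. For SOX17, 74.4% of Late promoters were past 2-fold, beside 44.5% of all regions. Over the 1415 regions SOX17 and SOX2 at day 4 had a rho per kb of 0.759 and 0.836 with GATA6 at day 4. That GATA6 column entered the class, so these rises are a description.

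The strength of the GATA6 motif went with early more than with late GATA6. In the class without a motif, median GATA6 was 0.490 RPM before Dox and 1.16 after 8 h, 2.01 on day 4 and 2.63 in XEN cells, and in the high class 1.14, 5.16, 4.19 and 4.77. Widths differed (422 and 952 bp), so the ratio to input is the fairer measure, at 2.26 and 5.12 at 8 h and 2.44 and 2.92 at day 4. GATA6 at promoters without a recognised motif thus stood about as far above input at day 4 as at 8 h. The SOX17 class, made from SOX17 peaks, held 692 accessible promoters (48.9%) against 44.5% of all regions.

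Single promoters show the range of these courses. The highest GATA6 level at 8 h, day 4 and in XEN cells was at a region 646 bp upstream of the start of the non-coding gene Gm38102 (chr5:123134464-123138762), whose 4299 bp made it the widest accessible promoter. GATA6 there was 3.92 RPM before Dox and 73.3, 66.1, 46.1, 41.4 and 43.3 from 8 h to day 4, with 35.0 in XEN cells. Per kb it had 17.1 at 8 h and 10.1 at day 4, and was passed at 8 h by a region 1052 bp upstream of a start on chromosome 10 (chr10:43477305-43478202) with 34.7 RPM per kb.

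The largest losses of GATA6 after 8 h lay where PTFs were bound before Dox. At Itga6, which encodes an integrin chain that binds laminin, GATA6 was 1.14 RPM before Dox, 11.0 and 7.11 after 8 and 16 h, 3.49, 2.21 and 0.757 on days 1, 2 and 4, and 0.705 in XEN cells. SOX2 there went from 10.4 before Dox to 0.543 at day 4, OCT4 from 9.15 to 1.31 and ESRRB from 9.79 to 0.770. The drop of GATA6 from 8 h to day 4, -3.56, was the largest of the 1385 regions with at least 1 RPM in either condition, although the region carries the GATA6 motif of high score shown above.

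Trp53bp1, which encodes an adaptor of the DNA damage response, was next at -3.46, with GATA6 at 1.14, 13.0, 2.50, 1.55, 1.12, 1.01 and 1.10 RPM from before Dox to XEN cells. Its OCT4 dropped at the same time, from 13.1 at 8 h to 2.21 at 16 h, but was already at 8.89 before Dox. The 3 others of the largest drops lay 3778 bp downstream, 2869 bp upstream and 2036 bp upstream of a start (chr15:79846732-79847313, chr4:119071127-119072440 and chr9:110946813-110948450), and fell by 3.41, 3.38 and 3.23 on the log2 scale. All 5 were in the group bound by PTFs before Dox.

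The largest gains of GATA6 from 8 h to day 4 lay close to starts and outside that group. At Dhx35, a gene for an RNA helicase, GATA6 was 0.653 RPM before Dox, 0.997 and 1.97 after 8 and 16 h, 3.0, 4.24 and 10.7 on days 1, 2 and 4, and 11.0 in XEN cells, a gain of 3.19 on the log2 scale. SOX17 there went from 1.15 to 7.03 and SOX2 from 1.99 to 7.16 by day 4, while input went from 1.17 to 1.64. At Oaz1, the gene of the ornithine decarboxylase antizyme, GATA6 was 0.653, 0.261, 0.522, 1.53, 1.4, 3.44 and 4.20 RPM, a gain of 3.0. Gatad2a, Pgap2 and Sesn3 followed with 2.63, 2.60 and 2.56.

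Sustained GATA6 from 8 h onward was found at several genes for zinc-finger proteins. At Zfp655 GATA6 was 0.653 RPM before Dox, 9.26 and 11.6 after 8 and 16 h, 7.07, 8.49 and 8.16 on days 1, 2 and 4, and 11.9 in XEN cells, and at Zfp280b 1.63, 9.82, 14.3, 7.76, 6.44, 8.19 and 9.5. ESRRB at Zfp655 was 5.48 before Dox and 0.889 at day 4, and OCT4 and SOX2 there were 2.37 and 3.63 RPM at day 4. Both sequences are printed above, with the GATA6 motif on the minus strand.

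SOX17 at day 4 was highest at Fbxl19, the gene of an F-box protein that binds CpG islands, where it was 4.64 RPM before Dox, 3.75 and 6.20 after 8 and 16 h, 19.9, 30 and 47.1 on days 1, 2 and 4, and 50.5 in XEN cells. GATA6 there was 1.80 before Dox, 6.31 at 8 h and 13.5 at day 4. At Lmna, the gene of lamins A and C, SOX17 was 4.69, 4.33, 3.8, 10.4, 12.4, 39.1 and 15.3 RPM and GATA6 2.78, 7.13, 9.17, 9.43, 10.1, 28.7 and 17.9. OCT4 and SOX2 at Lmna also reached their highest values at day 4, 12.1 and 18.8 RPM, with input at 5.20 against 3.30 before Dox.

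Crlf2, which encodes a cytokine receptor chain, had the highest OCT4 before Dox of all accessible promoters, with 32.5 RPM before Dox, 30.9 and 39.2 after 8 and 16 h, 37.1, 45.8 and 29.8 on days 1, 2 and 4, and 2.80 in XEN cells. OCT4 thus stayed high there to day 4, unlike at Rif1, and GATA6 was 1.47 before Dox, 2.98 at 8 h and 6.12 at day 4. Mllt6, a chromatin factor gene, had ESRRB at 29.9 RPM before Dox, among the 5 highest, with 29.0, 30.5, 18.6, 13.4 and 1.84 at the 5 later times. GATA6 there was 7.37 at 8 h and 3.21 at day 4.

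**Figure D5:**
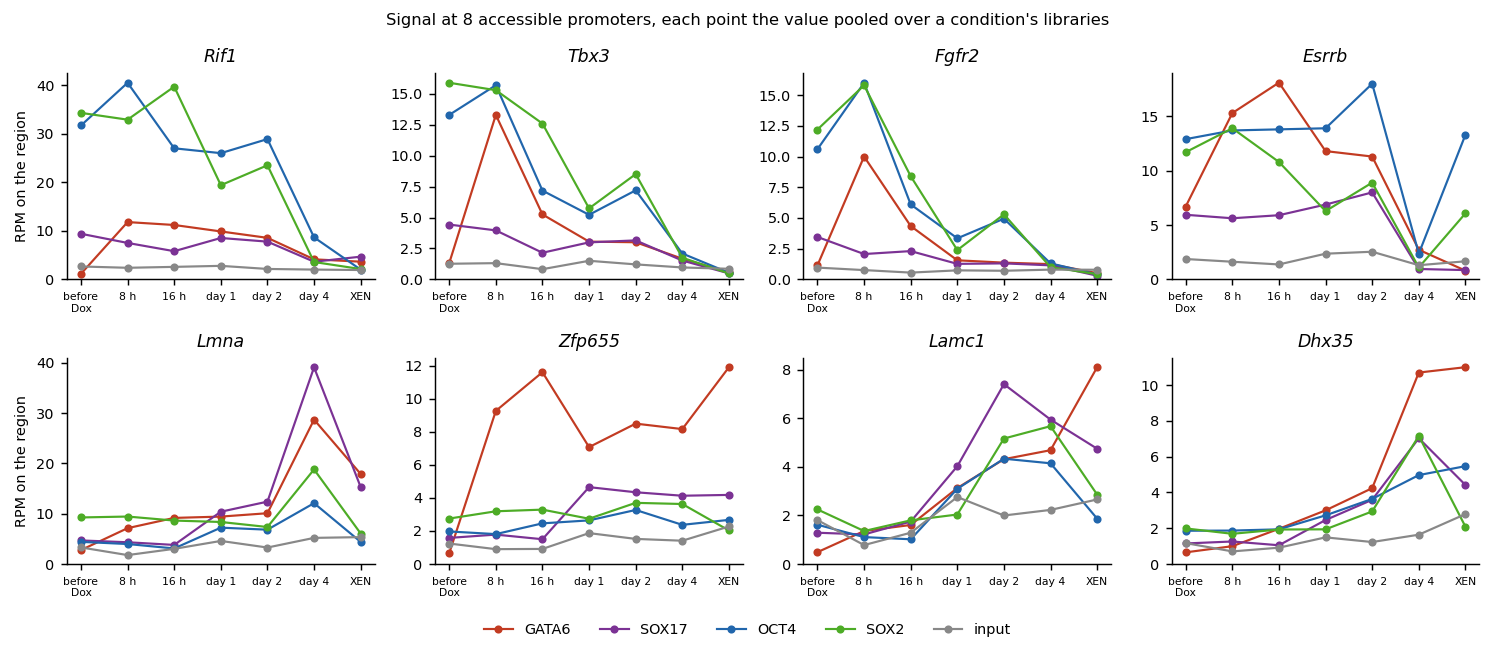
RPM of GATA6, SOX17, OCT4, SOX2 and input (vertical axis) in each condition (horizontal axis) at 8 accessible promoters, Rif1, Tbx3, Fgfr2, Esrrb, Lmna, Zfp655, Lamc1 and Dhx35. Each point is 1 pooled value. At Tbx3 GATA6 goes from 13.3 at 8 h to 1.67 at day 4, and at Dhx35 from 0.997 to 10.7.

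Of 49 genes listed as pluripotency regulators, 13 had accessible promoters, in 14 regions with Trim28 holding a pair, out of 34 regions of the list in the table. GATA6 was at least 2-fold higher at 8 h at 11 of the 14 and lower at 0 (median change 1.32), beside 60.4% and 1.80% of all regions. From 8 h to day 4 it was higher at 3 and lower at 4 (median 0.49), beside 30.9% and 34.8%. By day 4 SOX2 was at least 2-fold lower at 6, beside 24.1% of all regions. ESRRB was lower at 8, beside 25.2%, and OCT4 at 4, beside 19.4%. None of the 14 was at least 2-fold higher in SOX2, OCT4 or ESRRB, beside 24.0%, 21.0% and 0.248% of all regions. Of the 14, 9 were bound by PTFs before Dox and 10 were of the Transient class, both above the shares of all regions given with these classes.

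Within this list Rif1, which encodes a factor of replication timing and DNA repair, held the highest OCT4 and SOX2 before Dox. OCT4 there was 31.7 RPM before Dox, 40.5 and 27.0 after 8 and 16 h, 26, 28.9 and 8.65 on days 1, 2 and 4, and 2.0 in XEN cells, and GATA6 1.14, 11.8, 11.2, 9.87, 8.55, 4.12 and 3.64. OCT4 stayed near its starting level up to day 2 and GATA6 was present alongside it. At Tbx3, the gene of a T-box factor, both factors fell sooner than at Rif1. GATA6 there was 1.31, 13.3, 5.25, 3.05, 3.0, 1.67 and 0.568 RPM, and OCT4 was 13.3 before Dox, 7.18 at 16 h and 2.09 at day 4.

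Nanog, which encodes a homeodomain factor of the naive state, had GATA6 at 1.14 RPM before Dox, 3.23 and 2.60 after 8 and 16 h, 1.33, 1.05 and 0.576 on days 1, 2 and 4, and 0.432 in XEN cells. SOX2 there went from 5.75 to 0.442 by day 4. Klf4, a Krüppel-like factor gene, ran the other way, with GATA6 at 1.31, 3.24, 6.13, 3.91, 3.96, 6.01 and 9.48 RPM and SOX2 at 4.24 before Dox and 6.55 at day 4. The Klf4 summit lies 121 bp upstream of the start and that of Nanog 25 bp downstream, so both are close to a start.

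L1td1, which encodes an RNA-binding protein of ES cells, kept GATA6 after 8 h, with 0.980 RPM before Dox, 5.15 and 7.49 after 8 and 16 h, 7.01, 7.32 and 8.02 on days 1, 2 and 4, and 6.49 in XEN cells. It stands with Klf4 and apart from Tbx3 and Nanog in this respect.

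At an intronic region 943 bp into Esrrb GATA6 was already 6.70 RPM before Dox, the highest of all accessible promoters in that column, against input of 1.87. It was then 15.3 and 18.1 after 8 and 16 h, 11.8, 11.3 and 2.72 on days 1, 2 and 4, and 0.802 in XEN cells. OCT4 there was 12.9, 13.7, 13.8, 13.9, 18 and 2.37 RPM up to day 4 and 13.3 in XEN cells, where only 1 library was made, and SOX2 in XEN cells was 6.07 against 1.09 at day 4. The XEN value of OCT4 thus stands apart from the falling median of the set.

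Of 31 listed regulators of PrE, 3 had an accessible promoter. At Sall4, a zinc-finger transcription factor gene, GATA6 was 1.47 RPM before Dox, 1.61 and 2.03 after 8 and 16 h, 3.04, 3.60 and 4.70 on days 1, 2 and 4, and 3.61 in XEN cells. At the start of Sox17 it was 0.163, 0.449, 1.11, 1.23, 1.27, 1.5 and 3.14, low values that rest on few reads. At Fgfr2, which encodes an FGF receptor, it was 1.14, 10.0, 4.34, 1.55, 1.36, 1.24 and 0.502, alongside OCT4 at 10.6, 16.0, 6.10, 3.34, 4.94, 1.3 and 0.400. The Fgfr2 region peaked at 8 h for both factors, as Tbx3 did.

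Genes of the PrE matrix and transport products had 6 accessible promoters out of 30 listed regions, all 6 of them in the SOX17-bound class. SOX17 by day 4 was at least 2-fold higher at 4 and lower at 0, beside 44.5% and 8.72% of all regions, with a median change of 1.53. At Lamc1, a laminin chain gene, GATA6 was 0.490 RPM before Dox, 1.36 and 1.61 after 8 and 16 h, 3.13, 4.32 and 4.69 on days 1, 2 and 4, and 8.11 in XEN cells, and SOX17 went from 1.29 to 7.41 at day 2 and 5.95 at day 4. At Apoe, the apolipoprotein E gene, GATA6 was 1.80, 12.8, 10.7, 9.85, 6.87, 3.33 and 1.41. The laminin gene gained GATA6 late and Apoe lost it.

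The signalling feedback genes with accessible promoters were Jun, Dusp6, Axin2, Socs3, Spry1 and Ccnd1, 6 of 16 listed regions. GATA6 was at least 2-fold higher at 8 h at all 6, beside 60.4% of all regions, with a median change of 1.58. Jun, which encodes an AP-1 subunit, had GATA6 at 0.490 RPM before Dox, 2.08 and 4.93 after 8 and 16 h, 2.32, 2.93 and 4.30 on days 1, 2 and 4, and 9.46 in XEN cells. Ccnd1, the gene of cyclin D, had 0.653, 1.88, 1.98, 1.22, 0.539, 0.449 and 0.267. ESRRB was at least 2-fold lower at 4 of the 6 by day 4, beside 25.2% of all regions.

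In RPM, ribosomal protein genes gained GATA6 mostly after 8 h. Their list, matched by symbol, had 11 accessible promoters of 24 regions, 10 of them ribosomal protein genes and 1, Rps6ka1, a kinase gene caught by its name. GATA6 changed by a median of 0.43 at 8 h, with 2 at least 2-fold higher, beside 60.4% of all regions. From 8 h to day 4 it changed by 1.29, with 8 higher and 0 lower, beside 30.9% and 34.8% of all regions. Higher levels were also seen at 34.1% of all accessible promoters and at 48.5% of those within 250 bp of a start. Of the 11, 7 were Late and 7 had no PTF peak, the latter near the share of all regions given above. Input at them changed by a median of 0.41 between before Dox and day 4. Its change over the span of the GATA6 gain, from 8 h to day 4, is not given for this list.

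Rps26 had GATA6 at 0.653 RPM before Dox, 0.947 and 2.61 after 8 and 16 h, 1.95, 2.90 and 3.40 on days 1, 2 and 4, and 5.70 in XEN cells, and input of 0.659 after 8 h, 1.47 on day 4 and 2.01 in XEN cells. Rps19 had 0.653, 1.34, 3.14, 2.71, 3.13, 3.76 and 4.74, with SOX17 at 2.03 before Dox and 6.88 at day 4. At both, GATA6 was above input at every time from 8 h on.

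The smaller lists of general genes held 1 to 5 regions each. Their median GATA6 changes were positive both at 8 h and from 8 h to day 4, while the counts past 2-fold varied. Respiratory chain and ATP synthase genes had 4 accessible promoters, all 4 at least 2-fold higher in GATA6 at 8 h and in SOX17 by day 4, beside 60.4% and 44.5% of all regions. From 8 h to day 4 GATA6 was at least 2-fold higher at 2 of the 4, beside 30.9%, with Uqcrq at 2.37 RPM at 8 h and 9.5 at day 4. Uqcrc1, of the same list, had the highest ESRRB of it, 10.6 RPM before Dox and 1.12 at day 4. Translation factor genes had 2 (Eif2d and Eef1g), both at least 2-fold higher in GATA6 from 8 h to day 4, beside 30.9% of all regions. At 8 h only 1 of the 2 was, beside 60.4%. The 1 proteasome gene, Psmc6, had 2.88 RPM of GATA6 at 8 h and 4.49 at day 4, a rise of less than 2-fold. Replication-dependent histone genes had 5, of which GATA6 was at least 2-fold higher at 4 by 8 h and at 3 from then to day 4, beside 60.4% and 30.9%.

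Zinc-finger protein genes, a large family of mostly DNA-binding repressors, had 23 accessible promoters of 76 regions. GATA6 was at least 2-fold higher at 13 by 8 h (median change 1.35, as in the whole set) and at 7 from 8 h to day 4, and lower at 0 in both comparisons, beside 60.4% and 30.9% of all regions higher and 1.80% and 34.8% lower. SOX17 by day 4 was at least 2-fold higher at 13, beside 44.5% of all regions, and ESRRB lower at 9, beside 25.2%. Beside Zfp655 and Zfp280b, Zfp809 had GATA6 at 4.98 RPM at 8 h and 8.26 at day 4, and Zfp568 9.72 and 6.33.

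Oct4 siRNA left GATA6 at accessible promoters close to the control at day 2. Median GATA6 was 2.11 RPM with control siRNA and 2.09 with Oct4 siRNA, a median change of 0.01 (95% interval -0.01 to 0.04), against -0.00 in all regions and -0.24 at accessible active enhancers. At least 2-fold higher levels were seen at 10 accessible promoters (0.707%), beside 7.77% of all regions, and lower ones at 21 (1.48%), beside 5.28%. The authors' class of the siRNA response, drawn from the same libraries, was unchanged for 1359 (96.0%), decreased for 41 (2.90%) and increased for 15 (1.06%), against 85.2%, 6.25% and 8.57% of all regions.

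The 41 decreased promoters had high OCT4 before Dox. Their median OCT4 before Dox, a column that did not make the class, was 9.13 RPM against 1.48 in the unchanged group, and SOX2 before Dox 11.7 against 2.01. Per kb, OCT4 was 8.18 against 2.52. The 2 groups also differed in position. Only 19 of the 41 summits lay within 1000 bp of a start, against 965 of 1359 in the unchanged group. Median distances were 1171 and 227 bp and CpG ratios 0.329 and 0.617. The part of position in the OCT4 difference was not tested. GATA6 at the decreased promoters was 12.8 RPM at 8 h and 3.33 at day 4, and ESRRB went from 5.07 before Dox to 0.956 at day 4. At the 15 increased promoters SOX17 stood out, at 2.21 RPM before Dox and 12.1 at day 4.

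Among single promoters, Slc25a40, a mitochondrial carrier gene, had GATA6 at 4.97 RPM with control and 1.52 with Oct4 siRNA, and C330002G04Rik 4.32 and 1.53. Apoe had 9.13 and 5.77, and the Esrrb region 14.9 and 6.96. The largest drop, -1.69, was at a region 93215 bp downstream of the nearest start (chr5:33535273-33536607), with 3.73 and 1.03 RPM. The largest rise, 1.75, was at Cds2, a phospholipid synthesis gene, with 0.780 and 3.08, followed by Fbxo6 with 1.25. Phc1, which encodes a Polycomb subunit, had 1.94 and 4.48.

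SOX17 was higher with Oct4 siRNA, though no more at accessible promoters than elsewhere. Its median was 1.04 RPM with control and 1.56 with Oct4 siRNA, a change of 0.48 (95% interval 0.45 to 0.50) against 0.52 in all regions, so that relative to the table it was -0.04. At least 2-fold higher levels were seen at 139 accessible promoters (9.82%), beside 20.8% of all regions, and 1 (0.0707%) was at least 2-fold lower, beside 0.441%. The single lower one was an intronic region of Cacng7, with 4.10 and 1.38 RPM, named here because it is the only one. At the 41 promoters where GATA6 was classed as decreased, SOX17 changed by -0.10 (3.66 to 3.12 RPM), and at the 15 increased ones by 1.04 (4.68 to 9.20).

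The largest rises of SOX17 were at 1700001P01Rik, from 1.68 to 6.65 RPM, Cds2, from 0.728 to 2.87, Rfc1, from 0.395 to 1.62, and Msantd2, from 0.957 to 3.30. Cds2 also had the largest rise of GATA6. Rfc1, which encodes the large subunit of replication factor C, had no PTF and no SOX17 peak. Input of the siRNA cells was not analysed here, so no ratio to input was formed for either factor.

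The 5 largest gains of OCT4 from before Dox to day 2 were all in the ectopic group, and those at starts were Iars2, a mitochondrial tRNA synthetase gene, with 0.897 RPM before Dox, 3.15 at day 1 and 4.66 at day 2, Tmem256 with 1.83, 5.45 and 7.95, and Tango2 with 1.84, 5.19 and 7.78. GATA6 at these 3 was 1.22, 2.12 and 2.84 at 8 h and 3.41, 6.44 and 8.06 at day 2. The ectopic class was made from PTF peaks, so these gains are a description.

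The largest loss of OCT4 at day 2, -2.54, was at Amdhd2, an amino sugar metabolism gene, where OCT4 was 6.84 RPM before Dox, 9.70 and 10.3 after 8 and 16 h, 0.878, 1.04 and 0.941 on days 1, 2 and 4, and 12.8 in XEN cells. SOX2 there lay between 0.677 and 1.73 RPM in all conditions. This region was not in the PTF-bound groups, and its XEN value rests on 1 library. Trp53bp1, Acp6 and intronic regions of Sema5b and Mdfi made up the other 4 losses, all 4 bound by PTFs before Dox.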

How the data were processed

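ChIP-seq values were analysed for 45 of 47 labelled conditions (92 of 96 libraries). The authors trimmed reads with cutadapt, aligned them to mm10 with Bowtie2, removed duplicates by molecular identifiers, called peaks with MACS2 and counted reads on each GATA6 region with bamsignals. The submitters' processing notes also name bcl2fastq and SAMtools. The deposited values are RPM, pooled over libraries into 1 value a condition, so no count test or replicate error was possible, although 4 columns held whole multiples of 1 step in 100% of low values (tolerance 0.02). Class columns and the FIMO motif score were also deposited by the authors, who used DESeq2 for the siRNA class. Another 14 per-sample columns of accessibility and histone marks were not used.

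Changes were differences of log2(RPM + pseudocount), the pseudocount being percentile 5 of the assay (0.193 for GATA6, 0.192 for SOX17, 0.167 for OCT4, 0.195 for SOX2, 0.164 for ESRRB and 0.158 for input), with no filter on low values. Medians have order-statistic and shares Wilson 95% intervals, which cover regions and counting only. Gene starts came from GENCODE M21 on GRCm38, without pseudogenes and small RNAs, and a gene was named for a region only within 1000 bp. Named regions were up to 4 for each of 10 gene lists, the 5 highest in a column, and the 5 largest rises and falls with at least 1 RPM, and Nanog was named beside this rule. The split by PTF class within distance groups was made after seeing the data. Members and lists were chosen with earlier results of these data known. Helper functions were tested on simulated data. Python 3.11.15, numpy 2.4.6, pandas 2.3.3, scipy 1.17.1, pysam 0.24.0, matplotlib 3.10.9 and samtools 1.23.1 were used. Alternatives changed the pseudocount, the scaling, the treatment of input, the mean or median and the distance to a start.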

Additional observations from a re-analysis of the deposited data

How the results depend on the processing

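The 9 median changes were recomputed under 75 alternatives, of which 15 moved them by less than their 95% interval, 52 moved them further and 8 turned their direction. The ratio to input and the limits of 250 bp and over 1000 bp were added after seeing the data. Values follow in the order GATA6 at 8 h, GATA6 from 8 h to day 4, SOX17, OCT4, SOX2 and ESRRB at day 4, GATA6 and SOX17 with Oct4 siRNA and input at day 4, leaving out those that moved less, and the cause was not tested. With a pseudocount 10 times larger they were 0.58, 0.30, 0.48, 0.16, 0.11, -0.32, 0.21 (SOX17 with siRNA) and 0.05 (input). With one 10 times smaller GATA6 at 8 h was 1.62, SOX17 1.08, ESRRB -0.97 and SOX17 with siRNA 0.54. Relative to all regions GATA6 at 8 h turned to -0.03 and SOX17 with siRNA to -0.04, while SOX17 was 0.17, OCT4 0.17, SOX2 0.10 and ESRRB -0.42. With input subtracted the changes were 2.66 and 0.43 for GATA6, 1.77 for SOX17, 0.45 for OCT4 and -1.36 for ESRRB. As ratios to input they were 1.80, -0.10 (turned), 0.82, 0.16, 0.04 and -0.94. Within 1000 bp of a start they were 1.14, 0.82, 1.11, 0.49, 0.46, -0.60, 0.05 (GATA6 with siRNA) and 0.16 (input). Within 250 bp they were 1.00, 0.98, 1.14, 0.52, 0.54, -0.54, 0.07 (GATA6 with siRNA) and 0.17 (input). Over 1000 bp they were 1.83, -0.74, 0.32, -0.40, -0.95, -1.53, -0.12, 0.42 and -0.06, with GATA6 from 8 h to day 4, OCT4, SOX2 and input turned. As means they were 0.26 for GATA6 from 8 h to day 4, 0.77 for SOX17, 0.02 for OCT4, -0.19 for SOX2 (turned), -1.08 for ESRRB and 0.07 for input. The share of accessible promoters at least 2-fold higher in GATA6 at 8 h went from 63.8% to 28.1% with the larger pseudocount, and from 8 h to day 4 from 34.1% to 9.12%, then below the 10.3% lower.

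No paired analysis was possible because the values pool the replicates of a condition, which also left no replicate to leave out. The siRNA changes were not run with input, whose siRNA libraries were not analysed here. Depth limits GATA6 before Dox and OCT4 in XEN cells, where the median accessible promoter held 5.0 and 7.0 reads. The lowest value stands for 1 read a library and no region is listed at 0, so a region without reads could not be told from one with a single read.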

Other observations

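The 1415 accessible promoters were spread over 19 autosomes and the X chromosome. Chromosome 11 held 139 and chromosome 7 held 129, while chromosome X held 15. From day 4 to XEN cells the median change was 0.14 for GATA6, -0.20 for SOX17, -0.75 for SOX2 and -0.84 for OCT4, and 0.30 for input.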
